A study of Mus musculus with 14 samples.

Results

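The comparison described here set activated bulge cells of the hair follicle against interfollicular epidermis in old mice. Its members were 4 of the 14 RNA-seq libraries of the series, chosen by their titles: 2 libraries labelled activated bulge stem cell, from depilated skin, and 2 labelled interfollicular epidermis, from skin in telogen, the resting phase of the hair cycle. The mice were 24 months old, of the C57BL/6 strain and wild type, and dorsal skin was used in each case. Cells had been sorted by FACS into Trizol LS, and libraries were made with an Illumina TruSeq mRNA kit. The same 2 populations at 2 months of age (4 libraries), and telogen bulge stem cells at 24 months (2 libraries), were also wild-type C57BL/6 dorsal skin and are set beside the comparison where they bear on it. The labels give no sorting gate, sex, animal identity, number of animals per library or time after depilation. Replicates carry only a number, so p-values measure the spread between these libraries, which may be technical. Activated bulge cells were sampled from depilated skin and epidermis from skin that was not, so cell population and depilation cannot be told apart.

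The bulge is a niche of the resting hair follicle that holds slow-cycling stem cells marked by Cd34, Krt15, Lgr5 and the transcription factors Lhx2, Sox9, Tbx1 and Nfatc1. Plucking the hairs starts a new growth phase, in which bulge and hair germ cells divide under Wnt and Hedgehog signals while bone morphogenetic protein (BMP) signals restrain them. The interfollicular epidermis is renewed by its own basal keratinocytes, which divide in the steady state and move up through the cornifying layers.

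Levels are given as FPKM, a count of sequenced fragments corrected for transcript length and library depth. They were summed over the transcripts of a gene and divided by one constant common to all libraries. The 4 libraries rested on 23.7 to 41.8 megafragments, as worked out from the deposited confidence bounds. Differences are means of log2(FPKM + 1) in activated bulge minus those in epidermis, each with its standard error (SE), on a scale that understates changes of genes near or under 1 FPKM. A gene is called where limma's Benjamini-Hochberg adjusted p over 12061 autosomal genes is under 0.05. The replicates of the 2 groups correlated at 0.959 (activated bulge) and 0.947 (epidermis) across genes, against 0.997 for telogen bulge at 24 months, and the spread used in the tests is shared by all 12 libraries of the 6 groups. Xist, the RNA of the inactive X chromosome, was at 23.4 and 141 FPKM in the activated libraries and at 0.00416 and 0.266 in the epidermal ones, while the Y-linked Eif2s3y was at 0.137 and 0.0564 against 21.5 and 48.6. At 2 months the activated libraries were likewise the ones with Xist, at 15.8 and 104 FPKM against 0 and 0.280, so cell population and this sex-linked split cannot be told apart at either age. Telogen bulge at 24 months was like epidermis, with Xist at 0.0215 and 0.0372 FPKM and Eif2s3y at 24.5 and 24.7. Where activated and telogen bulge are set side by side, activation and this split therefore cannot be told apart either. The keratins of the basal layer could not be compared: Krt5 was listed at 0 in both epidermal libraries and at 11840 and 5153 FPKM in the activated ones, and Krt14 at 0 against 11360 and 3158, so both were left out of the tests.

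Of the 12061 genes, 1515 were called (12.6%): 1004 were higher in activated bulge (8.32%) and 511 were lower (4.24%). At an unadjusted p under 0.05, 2755 genes (22.8%) differed. The median difference over all genes was 0.04 on the log2 scale, with a median SE of 0.325. Libraries of the 2 groups did not overlap for 43.4% of the genes, 25.8% higher and 17.6% lower in activated bulge. The balance of higher and lower calls depended on the scaling, with 754 higher and 733 lower after quantile normalization and 1433 higher and 394 lower after equal library totals. The last setting moved the median over all genes to 0.36, a shift of 0.33. Without the 4 telogen bulge libraries, whose replicates were the most alike, 934 genes were called.

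**Figure D1:**
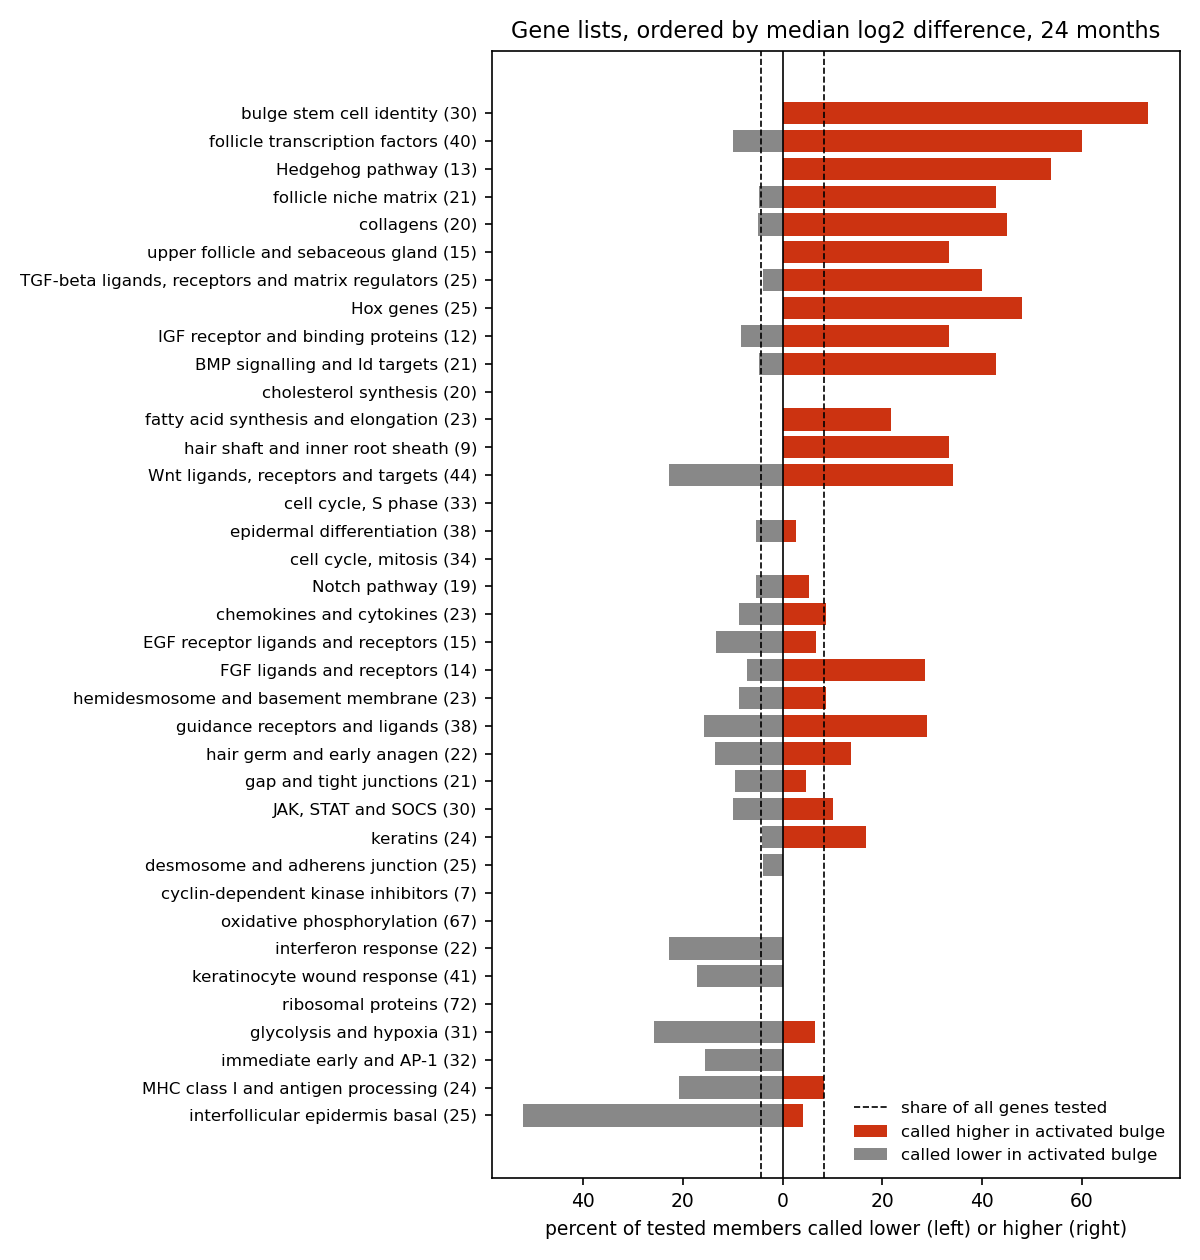
Share of the tested members of each gene list called higher (right) or lower (left) in activated bulge at 24 months, in percent, with the number tested in brackets. The dashed lines are the shares over all genes tested, 8.32% higher and 4.24% lower. Bulge identity genes reach furthest to the right and basal epidermal genes furthest to the left, and both cell cycle lists have no call.

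Bulge identity genes made the widest contrast. Of 30 members, all tested, 22 were called higher and none lower, with a median difference of 3.44, against 8.32% higher and a median of 0.04 over all genes. This list, too, was chosen with earlier results of these data known, so the count is descriptive. Leaving out each of the 4 libraries in turn left 20 to 21 of them called higher, and without activated bulge library 1, 1 was called lower. Lhx2 (chromosome 2, 38206828 to 38225248, mm9), a LIM homeobox factor that maintains follicle stem cells, was at 163 and 164 FPKM in activated bulge and at 0.815 and 0.950 in epidermis. The difference was 6.45 (SE 0.35, adjusted p = 8.6e-06), and the groups were far apart. Tbx1, a T-box factor of the bulge, was at 111 and 140 FPKM against 0.829 and 0.637, a difference of 6.19 (SE 0.31, adjusted p = 8.6e-06). Sox9, which specifies the stem cells of the follicle, was at 132 and 69.4 FPKM against 1.28 and 4.24, a difference of 4.81 (SE 0.42, adjusted p = 5.86e-05).

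Cd34 (chromosome 1, 196765015 to 196787486, mm9), the surface sialomucin often used to sort bulge cells, was at 79.9 and 91.9 FPKM in activated bulge and at 2.56 and 0.375 in epidermis. It differed by 5.29 (SE 0.47, adjusted p = 6.45e-05), but its level in telogen bulge of the same age was higher still, at 944 and 1014 FPKM. Krt24, a keratin of the resting bulge, had the same order: 696 and 744 FPKM in telogen bulge, 82.5 and 79.0 in activated bulge and 4.21 and 1.54 in epidermis. S100a4, a calcium-binding protein, was at 5541 and 6267 FPKM in telogen bulge, 646 and 360 in activated bulge and 101 and 73.5 in epidermis. Lgr5, the R-spondin receptor, was at 26.7 and 43.4 FPKM against 0.164 and 0.217 in epidermis, a difference of 4.88 (SE 0.42). Nfatc1 was at 73.9 and 89.2 FPKM against 9.63 and 11.2, a difference of 2.85 (SE 0.32). For each of these 5 genes both activated libraries lay above both epidermal ones.

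Krt15, a keratin of bulge and basal cells, was not called. It was at 3026 and 2369 FPKM in activated bulge and at 5790 and 2874 in epidermis, so the groups overlapped, and the difference was -0.61 (SE 0.55, adjusted p = 0.592). In telogen bulge Krt15 stood at 15120 and 13530 FPKM. Other members with no call were Nfib, Npnt, Tnc, Itgb6, Fgf18, Klf5 and Ptgs1. Secreted members were also called higher. Grem1, a BMP antagonist, was at 70.7 and 101 FPKM against 0.480 and 0.376, and Ctgf, a matrix-bound growth factor, at 436 and 134 against 2.93 and 1.79. Postn, the matrix protein periostin, was the most abundant called member in activated bulge, at 1947 and 1497 FPKM against 18.7 and 200 in epidermis, where the 2 libraries themselves stood far apart.

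**Figure D2:**
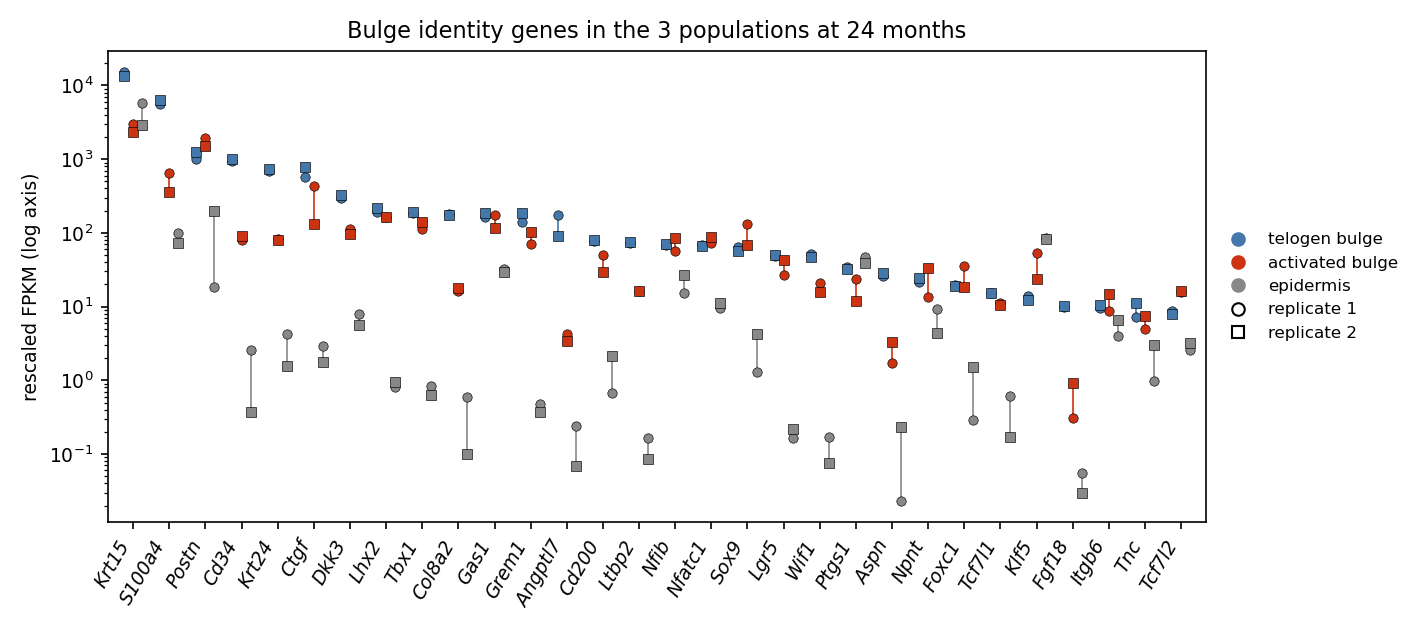
Rescaled FPKM (log axis) of the 30 bulge identity genes at 24 months in telogen bulge, activated bulge and epidermis, with circles for replicate 1, squares for replicate 2 and a line joining the pair. Cd34 and Krt24 step down from telogen to activated bulge and again to epidermis, while Lhx2, Tbx1 and Sox9 stand at like levels in both bulge groups and far lower in epidermis.

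**Figure D3:**
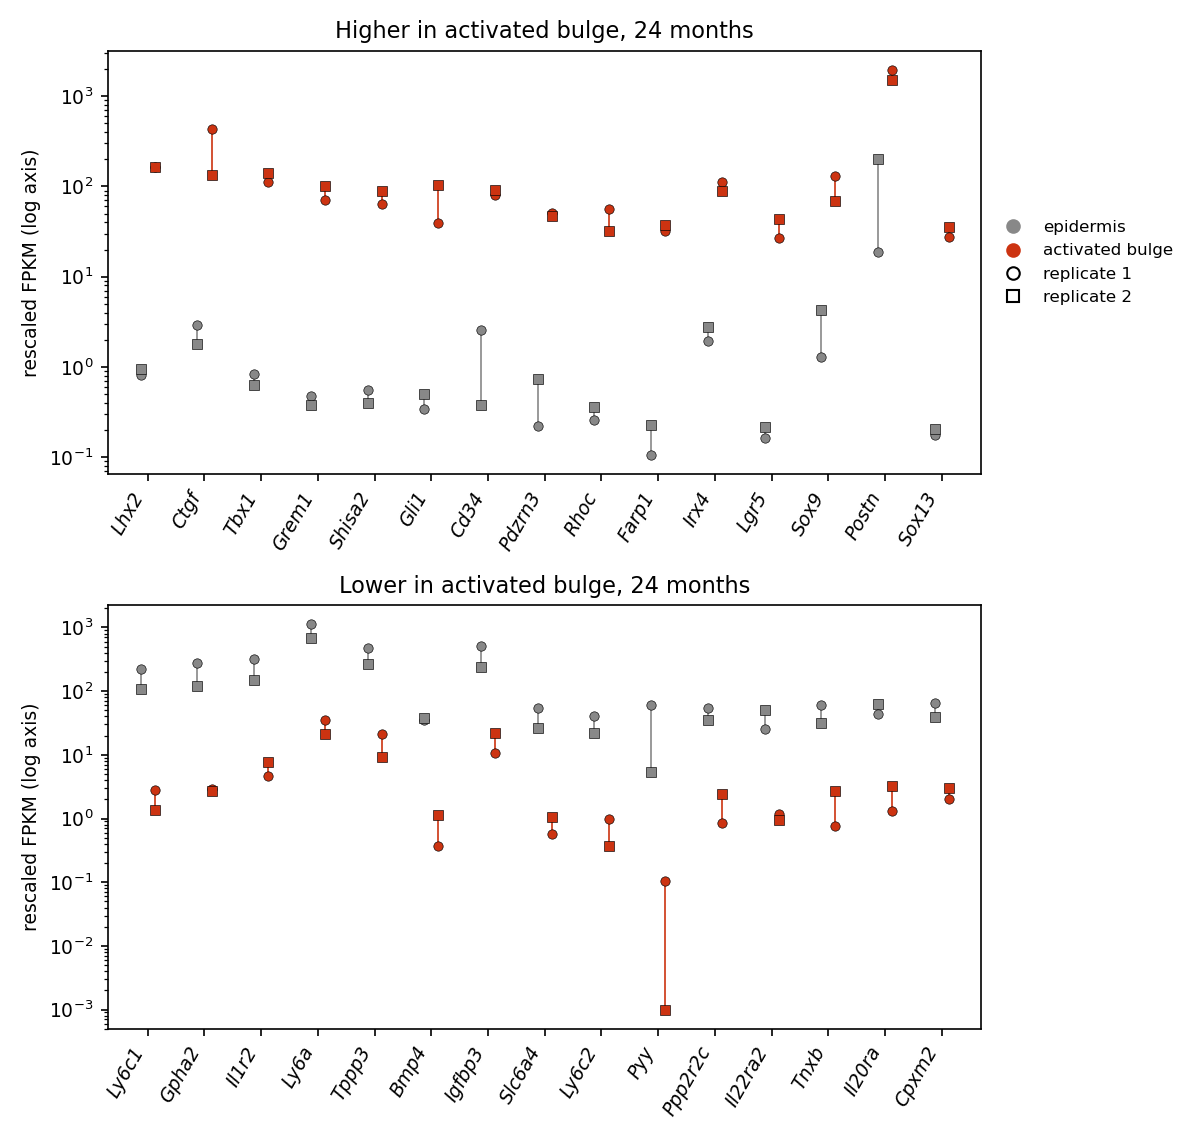
Rescaled FPKM (log axis) in each of the 4 libraries for the 15 genes most raised (top) and most lowered (bottom) in activated bulge among called genes whose libraries did not overlap. Circles are replicate 1 and squares replicate 2, and Pyy, listed at 0 in 1 activated library, is drawn at the bottom of its axis.

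Transcription factors of the follicle were called in 28 of 40 tested members, 24 higher and 4 lower, with a median of 1.69. Sox13 was higher in activated bulge than in the other groups at this age, at 27.6 and 35.6 FPKM against 5.12 and 4.53 in telogen bulge and 0.177 and 0.208 in epidermis. Its difference from epidermis was 4.76 (SE 0.36, adjusted p = 2.36e-05). Of the Iroquois genes, Irx4 was at 112 and 90.1 FPKM against 1.95 and 2.79, and Irx1, Irx2, Irx3 and Irx5 were also called higher. Runx1, a factor needed for timely entry into hair growth, was at 39.2 and 21.0 FPKM against 0.459 and 1.89, a difference of 3.86 (SE 0.38). Vdr, the vitamin D receptor, which the hair cycle requires, was at 331 and 224 FPKM against 24.7 and 25.5, a difference of 3.39 (SE 0.32). The 4 lower members were Sox6, Sox15, Sox21 and Meis2. Sox6 was at 0.267 and 1.06 FPKM against 8.06 and 11.4, a difference of -2.72 (SE 0.29, adjusted p = 0.000199). Leaving out each library gave 17 to 23 higher and 2 to 3 lower calls, with 2 lower without either activated library or without epidermis library 2.

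Hox genes, which carry positional identity along the body axis, were called higher in 12 of 25 tested members and lower in none. Hoxc13, the family member tied to hair, was at 6.22 and 8.71 FPKM against 0.232 and 0.150, a difference of 2.82 (SE 0.22, adjusted p = 2.84e-05). Hoxd8 was at 6.12 and 5.08 FPKM against 0.141 and 0.0842, and Hoxb6 at 19.9 and 15.1 against 3.56 and 3.95. Called members came from the HoxA, HoxB, HoxC and HoxD clusters, and Hoxd9 and Hoxd3 were listed at 0 in both epidermal libraries. The count fell to 7 without activated bulge library 2 or epidermis library 2 and to 8 without activated bulge library 1. Without epidermis library 2, and after quantile normalization, 1 member was called lower.

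Of 44 tested Wnt genes, 15 were higher and 10 lower in activated bulge (median 0.31). Every called ligand was lower: Wnt3, Wnt3a, Wnt4, Wnt5a, Wnt6, Wnt10a, Wnt10b and Wnt16. Wnt3 was at 3.71 and 4.65 FPKM in activated bulge and at 87.8 and 50.5 in epidermis, a difference of -3.71 (SE 0.53, adjusted p = 0.00119). Wnt3a was at 1.08 and 0.738 FPKM against 30.5 and 13.4, a difference of -3.49 (SE 0.45, adjusted p = 0.000644). Among receptors the direction was mixed, with Fzd1, Fzd2, Fzd3, Fzd7, Lgr4, Lgr5 and Lgr6 higher and Fzd10 lower. Fzd7 was at 90.3 and 82.4 FPKM against 2.23 and 3.74, a difference of 4.48 (SE 0.33, adjusted p = 2.36e-05), while Fzd10 was at 3.32 and 3.01 against 59.0 and 25.8.

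Called inhibitors and nuclear factors of the Wnt pathway were higher, except Apcdd1. Wif1, which binds Wnt ligands outside the cell, was at 20.6 and 15.7 FPKM against 0.169 and 0.0756, a difference of 4.08 (SE 0.29, adjusted p = 2.18e-05). Sfrp1, a secreted decoy, was at 172 and 305 FPKM against 14.6 and 12.4, and Dkk3 at 115 and 97.7 against 7.88 and 5.61. Tcf7l1, a repressor that bulge cells use, was at 11.3 and 10.7 FPKM against 0.620 and 0.172, and Tcf7l2, Tle1, Tle2 and Nkd1 were also called higher. The membrane inhibitor Apcdd1 was lower, at 14.4 and 9.52 FPKM against 72.8 and 41.0. Axin2, a common target of the pathway, was at 10.4 and 6.10 FPKM against 21.9 and 13.0, with a difference of -0.99 (SE 0.31, adjusted p = 0.0672). Lef1, a factor of the hair germ, stayed under 0.4 FPKM in all 4 libraries. Leaving out each library in turn gave 13 to 15 higher and 7 to 11 lower calls.

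Hedgehog components were called higher in 7 of 13 tested members and lower in none (median 1.62). Gli1 (chromosome 10, 126766938 to 126778635, mm9), the factor whose transcription reports pathway activity, was at 39.7 and 103 FPKM in activated bulge, 20.2 and 20.4 in telogen bulge and 0.341 and 0.498 in epidermis. It differed from epidermis by 5.52 (SE 0.55, adjusted p = 0.000123). Gli2, which relays the signal, was at 15.1 and 20.4 FPKM against 0.231 and 0.213, a difference of 3.92 (SE 0.40). The receptor gene Ptch1, also a target, was at 12.5 and 38.0 FPKM against 2.78 and 2.76, a difference of 2.61 (SE 0.74, adjusted p = 0.0459). The co-receptors Boc and Gas1 and the kinesin Kif7 were also called higher. For Gli1 and Ptch1, activated bulge library 2 was the higher of the pair. The ligand Shh was at 0.0248 and 0.0358 FPKM in activated bulge and at 0 and 0.0104 in epidermis, under the level tested. Without activated bulge library 2, without epidermis library 2 or after quantile normalization, 4 members were called.

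BMP genes were called higher in 9 of 21 tested members, and Bmp4 was the only one called lower. Bmp4 (chromosome 14, 47003196 to 47010274, mm9), a ligand, was at 0.375 and 1.15 FPKM in activated bulge and at 34.7 and 37.8 in epidermis, a difference of -4.44 (SE 0.33, adjusted p = 2.36e-05). The antagonists ran the other way: besides Grem1, Nog was at 3.78 and 3.18 FPKM against 0.401 and 0.239. Nog was at 26.2 and 27.7 FPKM in telogen bulge. The ligand Bmp6, the inhibitory Smad6 and Smad7, the signal-carrying Smad1 and Smad9, the secreted Fstl1 and the target Id2 were called higher. Id2 was at 25.5 and 29.2 FPKM against 9.90 and 7.70, and at 202 and 219 in telogen bulge.

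Of 25 tested genes of the TGF-beta group, 10 were called higher and 1, the co-receptor Tgfbr3, lower. Tgfb3, a ligand, was at 34.7 and 52.6 FPKM against 1.19 and 1.08, a difference of 4.36 (SE 0.33, adjusted p = 2.61e-05). Inhbb, which encodes an activin subunit, was at 60.4 and 28.2 FPKM against 0.601 and 2.13. The activin antagonist Fst was at 98.0 and 53.3 against 2.15 and 9.61. Latent TGF-beta binding proteins Ltbp1, Ltbp2 and Ltbp3 were each called higher.

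Growth factor receptors were called in both directions. In the FGF group, 4 of 14 tested members were higher and 1 lower. Fgfr1 was at 71.2 and 110 FPKM against 2.67 and 4.89, a difference of 4.26 (SE 0.38, adjusted p = 6.5e-05), whereas Fgfr3 was at 28.7 and 30.8 against 124 and 81.4, a difference of -1.72 (SE 0.28, adjusted p = 0.00255). The ligand Fgf1 was at 17.6 and 16.1 FPKM against 0.425 and 0.319. Among IGF genes, Igfbp4, Igfbp5, Igfbp6 and Igfbp7 were higher and Igfbp3 lower, of 12 tested. Igfbp5 was at 14.8 and 15.9 FPKM against 0.470 and 0.105, while Igfbp3, whose product binds IGF in the epidermis, was at 10.7 and 22.01 against 513 and 243. Among EGF receptor genes, Lrig1, a brake on the receptor, was higher at 101 and 111 FPKM against 30.5 and 29.1. The ligand genes Epgn and Hbegf were lower, Epgn at 29.4 and 29.5 FPKM against 112 and 299. No EGF ligand was called lower without activated bulge library 1, activated bulge library 2 or epidermis library 2.

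Collagens were called higher in 9 of 20 tested members and lower in 1, and niche matrix genes in 9 and 1 of 21. Col5a2, a fibrillar collagen, was at 20.9 and 19.6 FPKM against 0.0268 and 0.0962, a difference of 4.32 (SE 0.23, adjusted p = 8.6e-06). Col6a2 was at 28.3 and 16.7 FPKM against 0.293 and 0.0510, and the lone lower collagen, the transmembrane Col23a1, was at 1.76 and 2.69 against 26.5 and 24.3. Fibulin genes Fbln1 and Fbln2 were both higher, Fbln1 at 142 and 79.9 FPKM against 4.67 and 6.70. The collagen count was 5 to 7 when 1 library was left out, lowest without activated bulge library 2 or epidermis library 2 and 6 without activated bulge library 1.

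Fibroblast markers were read beside these matrix genes, because they could enter a sort with other cells. Of 16 markers, 8 were tested, and Crabp1 was called higher and Thy1 lower. Crabp1 was at 22.3 and 9.90 FPKM against 0.458 and 0.0478, and at 117 and 106 in telogen bulge. The list summed to 86.3 and 38.5 FPKM in activated bulge and 103 and 109 in epidermis, but without Thy1, at 98.8 and 101 in epidermis, it summed to 74.3 and 24.5 against 4.31 and 7.20. Col1a2, a collagen of dermal fibroblasts, was at 6.51 and 5.56 FPKM against 0.0348 and 0.00520, a difference of 2.78 (SE 0.81, adjusted p = 0.0511). In telogen bulge Col1a2 was at 13.2 and 13.3 FPKM. Col1a1, its partner chain, was at 4.72 and 1.20 FPKM against 0.0164 and 0.0229 (adjusted p = 0.388). Dcn, a defining dermal gene, was at 13.4 FPKM in activated bulge library 1 and 0.129 in library 2, against 0.0928 and 0.0764 in epidermis, and Lum was at 2.09 in library 1 and listed at 0 in the other 3. In telogen bulge Dcn was at 0.0323 and 0.0549 FPKM, and Lum was listed at 0 in both libraries. The part of fibroblast RNA in the matrix differences was not tested. The melanocyte list summed to 7.84 and 7.10 FPKM against 2.35 and 3.50, with Mitf called higher. Mitf was at 4.59 and 4.52 FPKM against 0.882 and 1.696, and at 12.93 and 12.55 in telogen bulge. The pigment genes Dct, Tyrp1 and Pmel had no call. Dct and Tyrp1 were higher in activated bulge without overlap, and Pmel was lower, at 1.05 and 0.817 FPKM against 1.145 and 1.34. The T cell list summed to 21.6 and 33.8 FPKM against 106 and 114. Thy1 made up most of the epidermal sums, at 98.8 and 101 FPKM there and 11.95 and 13.99 in activated bulge. Thy1 was not called without any single library of the 4. The other tested members of the list had no call, and their differences were positive, from 0.036 for Nkg7 to 0.519 for Trat1. Among them, Lck and Cd7 were higher in activated bulge without overlap. Langerhans and myeloid markers summed to 430 and 171 FPKM against 162 and 142. Its called member was Mfge8, at 59.4 and 21.97 FPKM against 2.66 and 3.08 (adjusted p = 0.00173), and at 108 and 117 in telogen bulge. Most of the sum in activated bulge was Epcam, which follicle keratinocytes also express, at 273 and 113 against 59.98 and 73.6 (adjusted p = 0.0561). The groups overlapped for Cd207, at 3.50 and 1.64 FPKM against 1.95 and 1.72, and for Cd74, at 38.1 and 12.1 against 35.0 and 18.6. The endothelial marker Egfl7 was called higher, at 5.71 and 4.07 FPKM against 0.256 and 0.669, and the glial marker Mbp lower, at 4.76 and 2.46 against 17.9 and 12.2. In such bulk samples, fewer cells of a type and less RNA per cell cannot be told apart.

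Guidance genes, first known from growing axons, were called in 17 of 38 tested members, 11 higher and 6 lower (median 0.09). Sema3e was at 32.7 and 31.8 FPKM in activated bulge and at 0.377 and 0.440 in epidermis, a difference of 4.56 (SE 0.30, adjusted p = 1.75e-05). Relatives of the same class went the opposite way: Sema3c was at 13.8 and 17.2 FPKM against 93.2 and 110, and Sema3d and Sema3f were also lower. Of the Slit receptors, Robo2 was higher at 5.32 and 7.19 FPKM against 0.530 and 0.714, and Robo1 lower at 0.754 and 1.61 against 9.25 and 9.74. Sema6a was near absent from telogen bulge, at 0.361 and 0.352 FPKM, and stood at 5.96 and 4.80 in activated bulge and 0.0110 and 0.104 in epidermis. The higher count fell to 7 without activated bulge library 2 or epidermis library 2, and quantile normalization gave 9 higher and 10 lower.

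Basal markers of the interfollicular epidermis were lower in 13 of 25 tested members, with 1 higher (Moxd1) and a median of -1.40, against 4.24% lower over all genes. Members of this list were chosen with earlier results of these data known, so the count describes the list and is no test of it. Ly6a (chromosome 15, 74825307 to 74828318, mm9), known as Sca-1 and often used to sort epidermal cells, was at 35.8 and 21.0 FPKM in activated bulge and at 1115 and 684 in epidermis. It differed by -4.94 (SE 0.88, adjusted p = 0.00421). Ly6c1 was at 2.84 and 1.36 FPKM against 222 and 109, a difference of -5.70 (SE 0.78, adjusted p = 0.000897). The Ly6 genes are close paralogs, so their separate values are uncertain. Basal genes with no call included the integrin Itgb4, the anchoring Col17a1 and Lamb3, the factor Trp63, Sfn and Cdh13, while the integrin Itga6 was called lower.

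Several cytokine receptors were higher in epidermis. Il1r2, a decoy for interleukin-1, was at 4.63 and 7.64 FPKM against 321 and 152, a difference of -4.99 (SE 0.63, adjusted p = 0.00055). Il20ra, a receptor for interleukins of the IL-20 group, was at 1.29 and 3.20 FPKM against 43.7 and 63.3, a difference of -4.11 (SE 0.49, adjusted p = 0.000371). Il22ra2, a soluble receptor for interleukin-22, was at 1.16 and 0.935 FPKM against 25.04 and 49.7. Both subunits of the interleukin-6 receptor were lower too, Il6ra at 3.56 and 4.93 FPKM against 39.5 and 36.6 and Il6st at 11.2 and 12.6 against 43.1 and 39.3. Of the JAK, STAT and SOCS list, 3 of 30 were lower, these receptors with Il20ra, and Socs2, Socs5 and Jak3 were higher. Over all genes the shares were 4.24% lower and 8.32% higher. The receptor genes Osmr, Lifr, Il4ra, Il22ra1 and Il20rb had no call. Other genes among the 15 most lowered were Gpha2, a glycoprotein hormone subunit, at 2.94 and 2.68 FPKM against 276 and 121, and Slc6a4, the serotonin transporter, at 0.564 and 1.06 against 53.9 and 26.2. Tnxb, the matrix protein tenascin-X, was at 0.764 and 2.66 FPKM against 60.6 and 31.5, a difference of -4.14 (SE 0.43).

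The motif TGANTCA, bound by the Fos and Jun dimers of AP-1, was searched on both strands in the 250 bases before each gene's start in RefSeq's promoter table (GRCm38.p6, the first listed window of a symbol), which held 362 of the 511 genes called lower and 675 of the 1004 called higher. It was 1 of 7 motifs searched and was chosen for display after the shares were seen. The others were the TATA box (TATAAA), the CCAAT box, the E2F site (TTTCCCGC), the cell cycle element CHR (TTTGAA), the GLI site (GACCACCCA) and the LEF/TCF site (CTTTGAT). It was present in 7.46% of the former, 3.41% of the latter and 4.61% of the 8484 tested genes with a window. Of the 15 most lowered genes, Il20ra and Tnxb held it, and their windows are shown with the match in capitals. They lie on the plus strand at chr10:19712337-19712586 and chr17:34670285-34670534, and a match is a run of letters, not a shown binding site.
Il20ra: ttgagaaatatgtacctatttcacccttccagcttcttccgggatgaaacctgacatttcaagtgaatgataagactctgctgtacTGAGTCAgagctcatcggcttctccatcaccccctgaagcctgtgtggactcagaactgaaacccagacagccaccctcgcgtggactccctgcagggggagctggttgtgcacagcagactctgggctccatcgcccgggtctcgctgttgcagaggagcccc
Tnxb: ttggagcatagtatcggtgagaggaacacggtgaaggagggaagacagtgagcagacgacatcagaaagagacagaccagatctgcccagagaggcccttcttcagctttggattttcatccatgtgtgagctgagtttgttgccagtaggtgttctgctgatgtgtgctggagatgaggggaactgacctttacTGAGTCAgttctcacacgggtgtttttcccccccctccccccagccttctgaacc

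Of 32 immediate early genes, 5 were lower and none higher (median -0.89). Klf2, a zinc finger factor, was at 8.66 and 7.64 FPKM against 116 and 69.2, a difference of -3.31 (SE 0.29, adjusted p = 6.45e-05), and Fosb, an AP-1 subunit, at 242 and 193 against 988 and 1112. Dusp1, a phosphatase that turns off MAP kinases, was at 432 and 153 FPKM against 1968 and 1450, and Atf3 and Egr4 were the other members. The summed level of the list was 11650 and 3379 FPKM in activated bulge and 19160 and 14560 in epidermis, and without activated bulge library 1 the count was 11, against 3 without activated bulge library 2 or epidermis library 1.

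Of 41 keratinocyte wound genes, 7 were lower and none higher (median -0.58). Il33, an alarmin of the barrier, was at 14.3 and 9.26 FPKM against 99.0 and 143, a difference of -3.26 (SE 0.52, adjusted p = 0.00233). Il1rn, the interleukin-1 antagonist, was at 11.6 and 7.46 FPKM against 109 and 55.9, and Mmp3, Epgn, Hbegf, Adam8 and Flrt2 were the others. The count of lower members was 2 without activated bulge library 1, 1 without activated bulge library 2 and 2 without epidermis library 2, where 3 others were called higher. Chemokines and cytokines had 2 higher and 2 lower calls of 23, against 8.32% higher and 4.24% lower over all genes. The lower 2 were Il33 and Tslp. Tslp was just under the threshold (limma adjusted p = 0.04998) and was lost in most other settings. Cxcl12, a chemokine that attracts stem and immune cells, was higher at 127 and 61.8 FPKM against 4.96 and 8.45, a difference of 3.58 (SE 0.38), and Kitl, the Kit ligand that melanocytes need, at 13.3 and 12.7 against 2.85 and 5.48.

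Of 24 MHC class I and processing genes, 5 were lower and 2 higher, with a median of -1.20 that lay between -1.48 and -0.77 over the settings tried. H2-Q7, a nonclassical class I chain, was at 30.4 and 27.6 FPKM against 219 and 156, a difference of -2.63 (SE 0.38, adjusted p = 0.00117), and the classical H2-K1 at 491 and 376 against 1627 and 1017. Class I genes are near-identical copies, so reads may be split among them. Mr1 and Cd1d1, which present metabolites and lipids, were the higher 2. Lower calls numbered 3 without activated bulge library 1, activated bulge library 2 or epidermis library 1. Interferon genes were lower in 5 of 22, led by Usp18, a brake on interferon signalling, at 5.24 and 2.91 FPKM against 50.4 and 22.4 (difference -2.81, SE 0.38). Leaving out each of the 4 libraries in turn gave 2 to 3 lower calls.

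Metabolic genes were called in both directions. In the glycolysis and hypoxia list 8 of 31 were lower and 2 higher (median -0.64). Slc16a3, a lactate exporter, was at 8.50 and 3.95 FPKM against 81.0 and 32.0, a difference of -2.92 (SE 0.52, adjusted p = 0.00429), and Bnip3, a hypoxia target of mitophagy, was at 22.3 and 11.8 against 115 and 56.6. Hk2, a hexokinase at the head of glycolysis, was higher at 37.9 and 33.04 FPKM against 4.58 and 9.28, a difference of 2.26 (SE 0.40), and the carbonic anhydrase Car12 at 217 and 136 against 23.2 and 46.4. The lower count was 3 without activated bulge library 2 or epidermis library 1. Fatty acid genes had 5 higher of 23 and none lower, among them the desaturase Fads1 at 7.91 and 9.56 FPKM against 1.29 and 0.576. That count was 1 without epidermis library 2, 2 without activated bulge library 1 and 3 without either of the others.

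By limma, no gene was called in 3 large housekeeping lists. Of 72 ribosomal protein genes none passed even an unadjusted p of 0.05, with a median of -0.62 that ranged from -1.02 to 0.04 over the settings. All their estimates were below 0, from -1.56 to -0.05. Of 67 genes of oxidative phosphorylation 1 was lower at that level (median -0.32), against 22.8% of all genes in either direction. Cholesterol synthesis had 3 higher and 1 lower of 20 at that level, with a median of 0.59, and equal library totals called 6 of them higher.

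The keratins of the inner root sheath, the layer that guides the growing hair, were at low levels in activated bulge. Krt27 was at 4.63 and 2.13 FPKM against 0.101 and 0.189 in epidermis, a difference of 1.87 (SE 0.31, adjusted p = 0.0027). Krt71 was at 0.970 and 1.51 FPKM against 0.0624 and 0.0913, a difference of 1.05 (SE 0.21, adjusted p = 0.00897), and Krt28 at 0.712 and 1.30 against 0.153 and 0.0400, a difference of 0.86 (SE 0.24, adjusted p = 0.0389). The groups did not overlap for these 3, which are the called members of the 9 tested hair shaft and sheath genes. Krt25, of the same layer, overlapped at 5.61 and 4.004 FPKM against 6.48 and 4.76. Krt71 was also at 3.08 and 2.91 FPKM in telogen bulge, above its activated level. Leaving out 1 library gave 1 to 3 higher calls, with 1 without activated bulge library 2 or epidermis library 1, and quantile normalization gave 1.

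The 250 bases before the start of these 3 genes are shown because they carry a shared TATA box match (TATAAA, in capitals), found in 13.0% of the 27025 windows of the table and 6.45% of those of tested genes. The windows lie on the minus strand at chr11:99351119-99351368 for Krt27, chr11:99374904-99375153 for Krt28 and chr15:101743098-101743347 for Krt71 (RefSeq, GRCm38.p6).
Krt27: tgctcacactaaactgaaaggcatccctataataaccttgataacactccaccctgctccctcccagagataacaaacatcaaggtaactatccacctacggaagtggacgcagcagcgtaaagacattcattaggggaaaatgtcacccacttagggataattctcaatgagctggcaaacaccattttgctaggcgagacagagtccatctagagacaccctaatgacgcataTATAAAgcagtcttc
Krt28: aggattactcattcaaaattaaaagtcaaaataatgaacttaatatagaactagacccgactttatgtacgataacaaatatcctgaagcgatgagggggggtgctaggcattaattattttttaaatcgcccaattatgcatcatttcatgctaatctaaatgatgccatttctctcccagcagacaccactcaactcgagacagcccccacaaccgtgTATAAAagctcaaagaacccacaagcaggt
Krt71: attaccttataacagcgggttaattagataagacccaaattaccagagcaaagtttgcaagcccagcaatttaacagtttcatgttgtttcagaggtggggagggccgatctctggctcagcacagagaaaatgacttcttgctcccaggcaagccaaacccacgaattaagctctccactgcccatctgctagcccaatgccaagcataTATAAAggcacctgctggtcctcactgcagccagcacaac
The match begins 15, 30 and 40 bases before the start in Krt27, Krt28 and Krt71. Among genes called higher it was found in 6.52% of windows and among genes called lower in 9.39%.

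The hair germ list had 3 higher (Runx1, Vdr and Hoxc13) and 3 lower (Cux1, Wnt10a and Wnt10b) of 22, and 1 lower without activated bulge library 1. Cdh3, the P-cadherin of the germ, was at 67.2 and 56.1 FPKM against 82.8 and 53.6, a difference of -0.12 (SE 0.35). The upper follicle list had 5 of 15 higher, including Prdm1 at 8.82 and 9.42 FPKM against 0.368 and 0.609, a difference of 2.77 (SE 0.21, adjusted p = 2.36e-05), and 0.911 and 0.861 in telogen bulge. Prdm1 is a repressor linked to sebaceous and differentiating cells, and the list had 3 calls without activated bulge library 2 or epidermis library 2. Of 38 genes of epidermal differentiation 1 was higher and 2 were lower, with 1 lower when any library was left out. Over all genes, 8.32% were called higher and 4.24% lower. Calml3, a calmodulin-like protein, was at 325 and 271 FPKM against 21.5 and 10.6, and the transglutaminase Tgm3 at 2.22 and 0.888 against 21.7 and 15.6. The spinous keratins Krt1 and Krt10 had no call, but their 95% intervals were wide. Krt1 was at 879 and 345 FPKM against 1174 and 1268, with an interval from -3.37 to 1.08. Krt10 was at 2173 and 769 FPKM against 1464 and 1391, with an interval from -2.46 to 2.17. The median interval width over the differentiation list was 4.16, so few calls there do not show equal levels.

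Cell junction and anchoring genes were called in both directions. At an unadjusted p under 0.05 by limma, 5 of 23 anchoring genes were higher and 3 lower. For gap and tight junction genes it was 3 and 4 of 21, against 22.8% of all genes in either direction. Of the anchoring genes, Hspg2 was called higher, at 20.5 and 38.5 FPKM against 5.21 and 3.10 (limma adjusted p = 0.0199). Itgb8, an integrin chain that activates TGF-beta, was higher at 18.0 and 16.3 FPKM against 0.144 and 0.968, a difference of 3.59 (SE 0.39), while the laminin receptor chains Itga6 and Itga3 were lower, with no lower call without either activated library. Itga6, a sorting marker of basal cells, was at 94.4 and 83.9 FPKM against 167 and 240. Cldn8, a tight junction claudin, was at 14.7 and 11.2 FPKM against 0.742 and 1.74. Gja1, the main gap junction protein of the epidermis, was at 65.1 and 75.8 FPKM against 184 and 266. Cdh4, the R-cadherin, was the single call of 25 desmosome and adherens junction genes, at 0.308 and 0.809 FPKM against 17.1 and 8.79.

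No cell cycle gene was called between activated bulge and epidermis. Neither the 33 S phase genes nor the 34 mitosis genes tested by limma had a call, and at an unadjusted p under 0.05, 5 and 1 of them were higher and none lower, against 22.8% of all genes in either direction. Mki67, the proliferation marker Ki-67, was at 42.8 and 56.1 FPKM in activated bulge and at 18.2 and 47.3 in epidermis, so the groups overlapped. The difference was 0.72 (adjusted p = 0.605), with a 95% interval from -0.76 to 2.20. In telogen bulge Mki67 was at 1.06 and 1.28 FPKM. Median differences were 0.29 for S phase and 0.25 for mitosis, and the 95% intervals of single genes reached from -0.92 to 1.97 and from -1.48 to 2.20. Quantile normalization called 3 S phase genes higher and equal library totals 4, and neither called a mitosis gene.

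**Figure D4:**
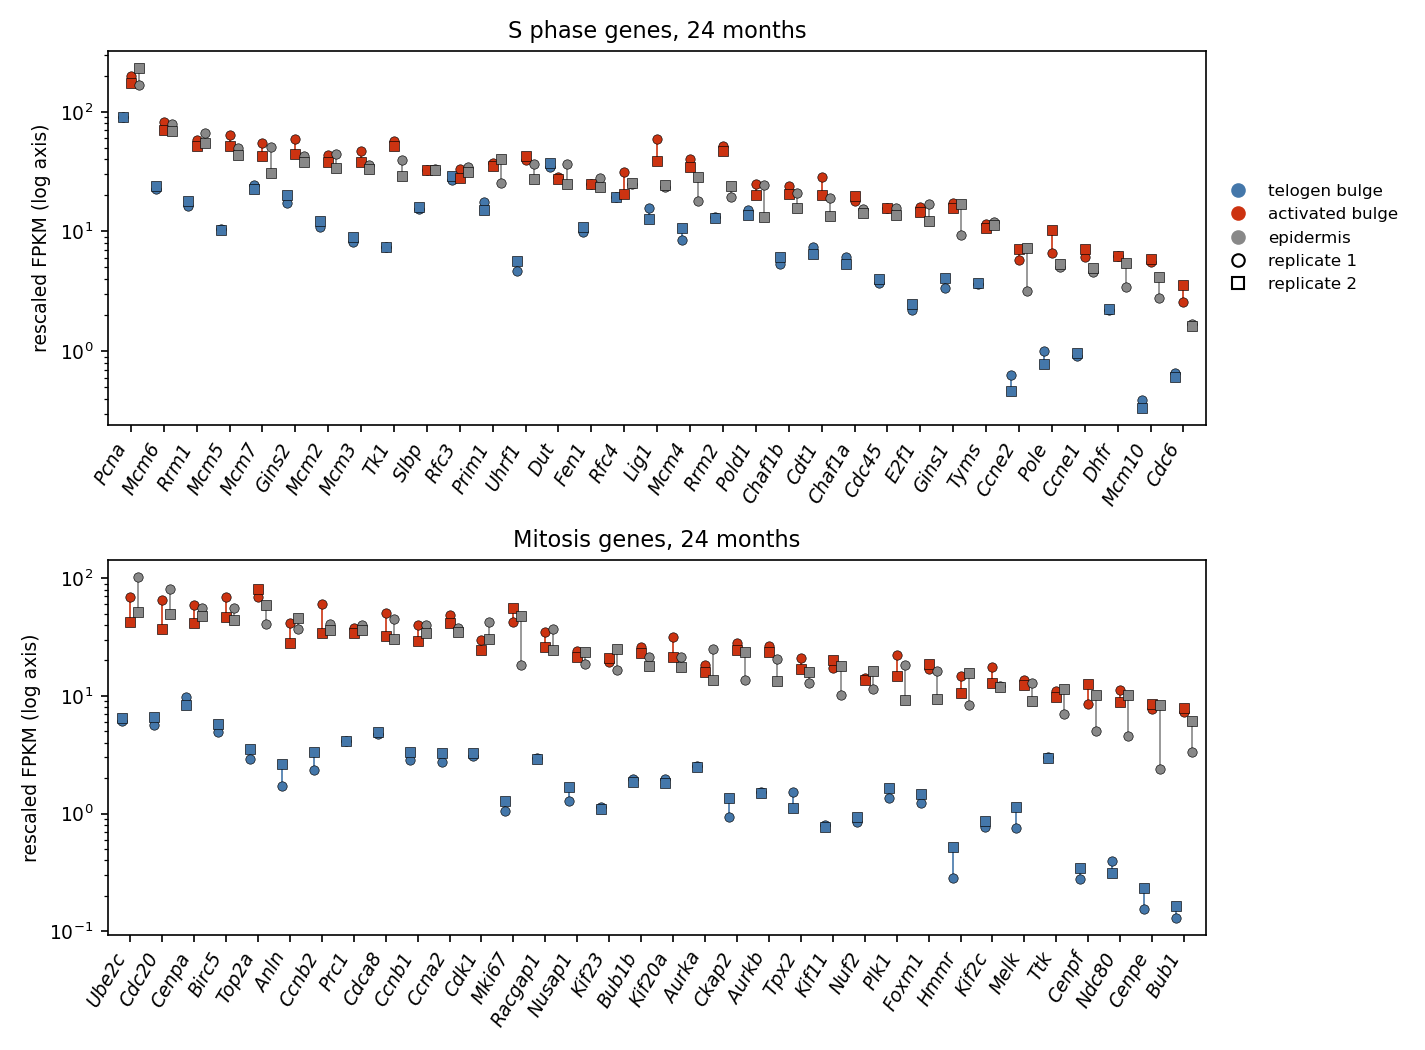
Rescaled FPKM (log axis) of 33 S phase and 34 mitosis genes at 24 months in telogen bulge, activated bulge and epidermis, with circles for replicate 1 and squares for replicate 2. Activated bulge and epidermis lie at like levels, and telogen bulge lies lower for the mitosis genes.

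In telogen bulge against the same 2 epidermal libraries, 2476 genes were called (20.5%), 1535 higher (12.7%) and 941 lower (7.8%). All 34 mitosis genes and 23 of 33 S phase genes were lower there, with medians of -2.94 and -1.23. The cyclin-dependent kinase inhibitors had no call in activated bulge, with none higher and 3 lower of 7 at an unadjusted p under 0.05, a level that 22.8% of all genes passed. Cdkn1c, the p57 inhibitor, was at 1.15 and 0.294 FPKM in activated bulge, 1.96 and 1.33 in epidermis and 17.1 and 11.96 in telogen bulge. Because telogen and activated bulge were compared with the same epidermis, their counts share its error and are given side by side only. For bulge identity genes the counts were 26 higher and 1 lower in telogen and 22 and 0 in activated bulge, and for Hedgehog genes 6 and 7 higher.

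The comparison at 2 months of age shares no library with that at 24 months. There 1534 genes were called (12.7%), 1104 higher (9.15%) and 430 lower (3.57%), or 792 and 807 after quantile normalization. Of the 1004 genes higher at 24 months, 842 were also higher at 2 months (83.9% of the former list and 76.3% of the latter). Of the 511 lower, 367 were also lower (71.8% and 85.3%), and none was called in opposite directions. Bulge identity had 23 higher at 2 months, Hox genes 10 and Hedgehog genes 8 higher and 1 lower.

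**Figure D5:**
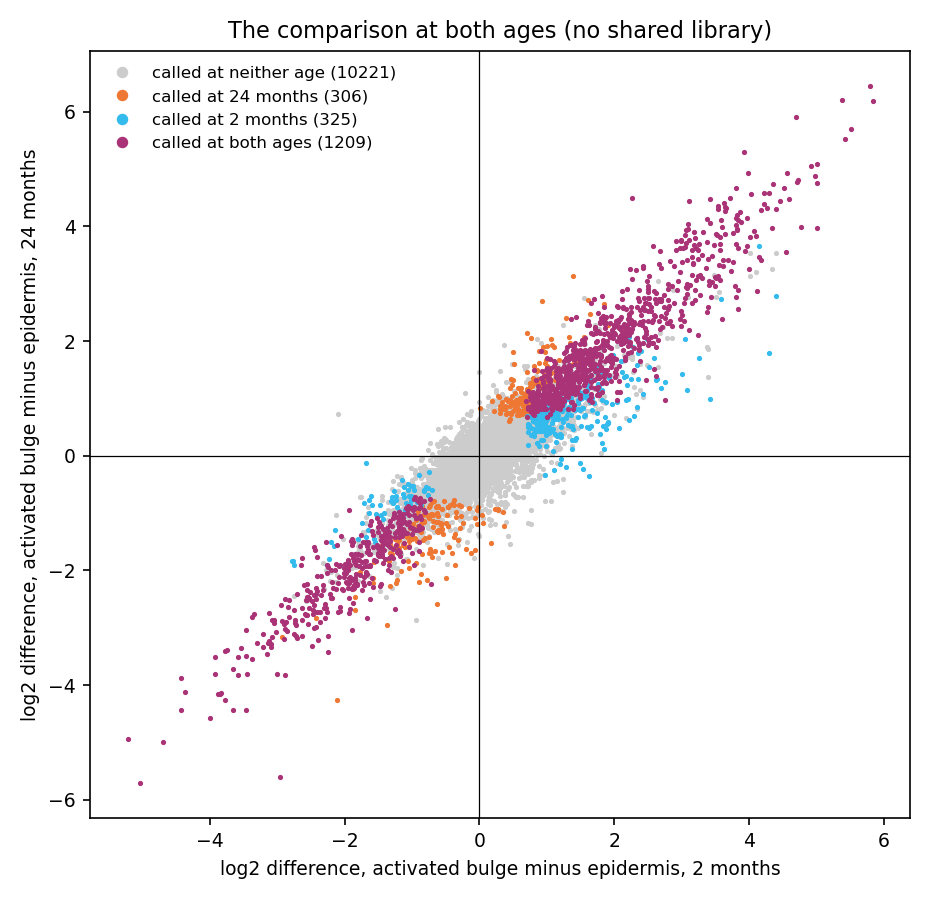
Log2 difference of activated bulge minus epidermis for each of 12061 genes at 2 months (horizontal) and 24 months (vertical), coloured by the ages at which the gene was called. The 1209 genes called at both ages lie in the lower left and upper right, 306 were called at 24 months and not at 2, and 325 the reverse.

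No gene passed limma's test of the difference between the ages (0%), and 153 of 12061 (1.27%) had an unadjusted p under 0.05. That share is below what such a threshold passes on average where no gene differs. Same-numbered activated libraries of the 2 ages deviated together at a correlation of 0.786, which this fit leaves in the spread. The median SE of that difference was 0.46, so the lack of calls does not show that age made no difference. The 5 smallest p-values belonged to Atp6v1g3, Krt24, Pvr, Mtmr7 and Iigp1, each with an adjusted p of 1. Krt24 was at 82.5 and 79.0 FPKM in activated bulge at 24 months and at 25.4 and 23.8 at 2 months, while epidermis was at 4.21 and 1.54 and at 4.25 and 4.38. Its difference from epidermis was 4.49 at 24 months and 2.27 at 2 months (difference 2.22, SE 0.47, unadjusted p = 0.000759). Atp6v1g3, a proton pump subunit, was at 4.06 and 3.53 FPKM in old epidermis and at 0.488 and 0.811 in young, and in activated bulge at 0 and 0.0349 in the old and listed at 0 in both of the young. Mtmr7, a lipid phosphatase, was at 0.938 and 1.77 FPKM in old activated bulge and at 5.99 and 7.28 in young, and Pvr, a nectin-like adhesion receptor, at 3.33 and 3.06 in old and 7.15 and 10.3 in young. Iigp1, an interferon-inducible GTPase, was at 0.0502 and 0.0805 FPKM in old activated bulge, 0.780 and 0.626 in young, 1.45 and 1.42 in old epidermis and 0.829 and 0.659 in young.

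Some genes were called at 24 months and not at 2 months, which is not a tested difference. Immediate early genes had 5 lower and none higher at 24 months, and 2 lower and 6 higher at 2 months. Egr4 was at 1.38 and 0.666 FPKM in old activated bulge and 4.27 and 5.19 in old epidermis, and at 2.62 and 3.22 against 1.70 and 3.49 in the young. Gja1 was at 65.1 and 75.8 FPKM against 184 and 266 in the old and at 192 and 189 against 211 and 188 in the young. The test of the age difference gave adjusted p = 1 for both genes.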

How the data were processed

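RNA-seq of FACS-sorted skin cells was deposited as assembled transcripts with their abundances. The authors made these with TopHat and Cufflinks on mm9, per the submitters' processing notes; versions are not given in the sources used here. The deposited transcript lines hold an FPKM value each, in another scale than usual: FPKM values were summed per gene symbol and divided by 16679.9, the same in all 12 libraries used, which brings them near usual FPKM. The 2 libraries of wounded epidermis, 1 per age and with another annotation, were not used. Autosomal genes were tested where 2 or more libraries reached 1 FPKM and the transcript had 300 bases or more. Left out were 5 genes listed at 0 in some libraries beside high values in others.

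Log2(FPKM + 1) values were fitted in limma 3.58.1 (R 4.3.3) with a mean for each of 6 groups over 12 libraries, two-sided, with trended moderation and Benjamini-Hochberg adjustment. FPKM are not counts, so no count model was used. On simulated data with this design and the spread of these 12061 genes, 20.7%, 68.7%, 90.7% and 96.7% of genes changed by 1, 2, 3 and 4 on the log2 scale were recovered, and 5.26% of unchanged genes had an unadjusted p under 0.05. Named genes were the 15 most raised and 15 most lowered called genes without overlap, at 5 FPKM or more; the 4 smallest p-values of each list; a few markers; the 5 smallest p-values of the age difference; and the called or named members of lists described in full. Members, lists and tests were chosen with earlier results of these data known. Genes named in lists outside these rules were chosen after their values were seen. The values of 1 called gene are not reported here.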

Additional observations from a re-analysis of the deposited data

How the results depend on the processing

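Of 186 named genes, 128 were called and 101 of those stayed called with the same sign in every one of up to 21 other settings that tested them (a filter of 5 FPKM left some out), and none reversed. The 24-month count of 1515 became 934 without the 4 telogen bulge libraries and 936 with library weights, both chosen after seeing the data; the spread of telogen replicates (SD of the difference 0.163 at 24 months and 0.356 at 2 months) was smaller than that of the others (0.556 to 0.753). At 2 months the count of 1534 became 786 with only its own 4 libraries, 906 without telogen bulge and 637 with library weights. Leaving out each library in turn gave 1012 to 1681 genes at 24 months, 1101 to 1576 at 2 months, 1215 to 2721 for telogen bulge against epidermis and 0 to 1 for the age difference. For telogen bulge the count was 1215 and 1283 without its own libraries 1 and 2, and 1561 without epidermis library 2. Where a group kept a lone library, it was assumed to vary like the rest. The age difference had 3 genes with no filter on low values and 1 without activated bulge library 2 at 2 months. Removing a length trend from each library, also chosen after seeing the data, gave 1087 higher and 828 lower at 24 months; library 2 minus library 1 went with transcript length (Spearman 0.466 in activated bulge and 0.224 in epidermis, across genes). Same-numbered libraries of the 2 groups deviated together at a correlation of 0.247. Over the 6 pairs of epidermis and activated bulge groups of both ages it was 0.186 to 0.786, highest between the 2 activated groups, and with telogen groups -0.59 to 0.112. No label pairs the libraries and each group has 2 numbers. With the replicate number as a block (replicate block) the count was 1478 at 24 months, 1489 at 2 months, 2492 for telogen bulge and 0 for the age difference. The block within the 4 libraries alone gave 1653. With 1 block for the number across both ages and no telogen libraries, chosen after seeing the data, the counts were 1926, 1891 and 0 for 24 months, 2 months and the age difference. FPKM carry no read count per gene, so precision at low levels is not known beyond the spread of 2 libraries.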
